A study of Rattus norvegicus with 6 samples.

Results

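Cps1 (ENSRNOG00000013704), Ass1 (ENSRNOG00000008837) and Arg1 (ENSRNOG00000013304), 3 enzymes of the urea cycle, were followed in RNA of rat liver (Rattus norvegicus) and of isolated rat hepatocytes after ischemia reperfusion (IR). They were picked by Ensembl gene ID, and 3 of 3 IDs were among the 26689 gene IDs counted. The reference table at hand holds all 3 symbols but pairs 0 of 3 IDs with a symbol, so the pairing of ID and symbol was taken as given and was not checked here. In IR the blood supply of the liver is interrupted by a clamp on the portal vein and then released. Control animals were healthy and untreated, and no sham operation is named, so every comparison of IR with control also sets operated against unoperated animals. IR animals had the procedure alone. Treated IR animals also received etanercept, a decoy receptor for tumor necrosis factor, at 9 mg/kg from 18 to 16 h before IR. They were also given an infusion of the nitric oxide donor nitroglycerin, at 6 µg/kg/min, ahead of and throughout IR. RNA was taken 1 day after IR, from whole liver and, from additional animals, from hepatocytes freshly isolated by collagenase perfusion. The sources used here give no strain, age or sex. RNA of 3 animals was pooled into 1 library for each of the 6 groups, so no difference between libraries has a replicate check. "Higher" and "lower" describe the libraries only.

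The urea cycle turns ammonia, which is toxic, into urea for excretion, and the liver is the organ that runs the whole cycle. Cps1, carbamoyl phosphate synthetase 1, takes up ammonia in the mitochondria and is the entry step of the cycle. Ass1, argininosuccinate synthase 1, brings in the second nitrogen by joining citrulline and aspartate in the cytosol. In many cells Ass1 also remakes arginine for nitric oxide synthesis. Arg1, arginase 1, splits arginine into urea and ornithine and closes the cycle. In liver the cycle is most active in hepatocytes near the portal vein, and Arg1 uses the same arginine that nitric oxide synthases use.

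Reads counted in genes ran from 1945331 to 7160610 per library. Levels are given as CPM, counts per 1e6 reads after TMM scaling, a method that sets libraries to the same level over most genes. Its factors ran from 0.794 to 1.24. The most abundant gene took from 8.10% to 19.4% of the reads of a library, so the share of reads left for other genes differed. The part of these differences in the results was not tested, and the share of reads is therefore given beside the level where they differ in direction. In RNA from bulk samples, fewer cells of a type and less RNA per cell cannot be told apart. Marker genes of liver cell types were listed by symbol, and since no ID could be paired with a symbol, the labels of liver and hepatocytes were not checked against them. All 3 enzymes were well covered, with at least 1436 reads in every library, and 3 of 3 passed the filter on low counts, as did 9932 of the 26689 gene IDs.

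Ass1 gave the widest range in whole liver and the narrowest in hepatocytes. The liver control library held it at 3073 CPM (7042 reads), the liver IR library at 1493 CPM (10075 reads) and the treated one at 1170 CPM (8768 reads). Both livers after IR were thus far under the control library. In hepatocytes the control was at 2203 CPM, IR at 2257 CPM and treated IR at 2214 CPM, a spread of 28.3 CPM (SD, n = 3 conditions) around a mean of 2225 CPM. The same spread in liver was 1018 CPM around 1912 CPM. The flat level in hepatocytes depends on the scaling. It was also seen with DESeq2 size factors, another scaling, at log2 ratios of 0.035 for IR vs control and -0.028 for treated IR vs IR. As a share of all reads in genes, Ass1 made up 0.206% of the control, 0.219% of the IR and 0.176% of the treated IR library. The 95% Wilson intervals were 0.201 to 0.211, 0.215 to 0.223 and 0.171 to 0.181. By share its coefficient of variation was 11.1% in place of 1.27%. The liver shares were 0.362% (control), 0.141% (IR) and 0.145% (treated IR), with intervals of 0.354 to 0.371, 0.138 to 0.144 and 0.142 to 0.148 and a coefficient of variation of 58.7% beside 53.3% on the TMM scale.

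Cps1 had the opposite arrangement, with a wider range in hepatocytes than in liver. The hepatocyte control library held it at 2346 CPM (7557 reads), the IR library at 3560 CPM (18413 reads) and the treated IR library at 1619 CPM (3488 reads). On this scale the IR library was the highest of all 6 for this gene and the treated IR library the lowest. Liver control was at 2933 CPM, liver IR at 2510 CPM and liver treated IR at 2129 CPM. The mean and SD over the 3 conditions were 2508 ± 981 CPM in hepatocytes and 2524 ± 402 CPM in liver (n = 3 conditions each), so the means were close while the spread differed. As a share of reads, Cps1 made up 0.346% of liver control, 0.237% of liver IR and 0.263% of liver treated IR. The hepatocyte shares were 0.219% (control), 0.345% (IR) and 0.128% (treated IR). By share, liver control and hepatocyte IR were thus level at the top, with intervals of 0.337 to 0.354 and 0.340 to 0.350, and hepatocyte treated IR was lowest again.

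Arg1 was highest in the IR library of both preparations. Liver control held 627 CPM (1436 reads), liver IR 798 CPM (5386 reads) and liver treated IR 599.6 CPM (4492 reads). Hepatocyte control held 556 CPM (1790 reads), hepatocyte IR 880.0 CPM (4551 reads) and hepatocyte treated IR 677 CPM (1459 reads). The liver part of this pattern rests on the scaling. As a share of reads, Arg1 made up 0.0738% of liver control, 0.0752% of liver IR and 0.0741% of liver treated IR, with overlapping intervals (0.0701 to 0.0777, 0.0732 to 0.0773 and 0.0720 to 0.0763). The hepatocyte shares were 0.0519% (control), 0.0853% (IR) and 0.0537% (treated IR), so the IR library was highest on both scales.

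**Figure D1:**
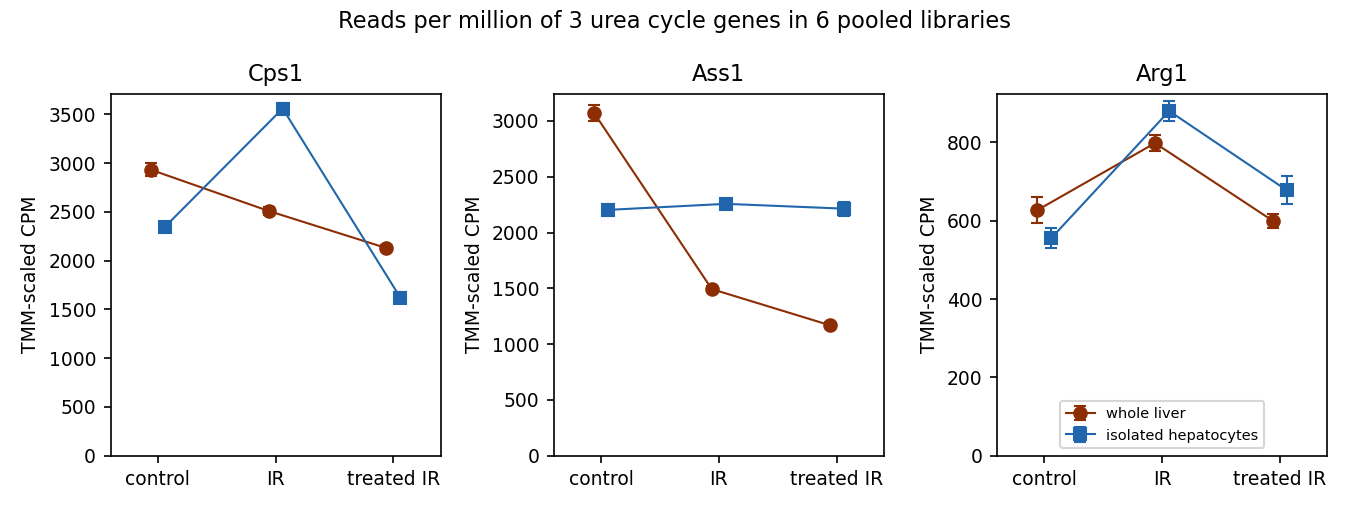
TMM-scaled CPM of Cps1, Ass1 and Arg1 (y axes, from 0) in control, IR and treated IR libraries of whole liver (circles) and isolated hepatocytes (squares), 1 pooled library per point, with 95% Poisson counting intervals that do not cover variation between animals. Ass1 was between 2203 and 2257 CPM in the 3 hepatocyte libraries and between 1170 and 3073 CPM in liver, while Cps1 ran from 1619 to 3560 CPM in hepatocytes.

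Ranked over the 6 libraries by TMM-scaled level, most neighbouring levels differed beyond counting error. For Cps1 the order was hepatocyte IR, liver control, liver IR, hepatocyte control, liver treated IR and hepatocyte treated IR, and each of the 5 neighbouring ratios had a counting interval above 1, the smallest being 1.07 (95% Clopper-Pearson interval 1.04 to 1.10). For Ass1 the order was liver control, the hepatocyte libraries of IR, treated IR and control, then liver IR and liver treated IR. Among the hepatocyte libraries the neighbours did not differ beyond counting error, at ratios of 1.02 (0.986 to 1.05) and 1.005 (0.968 to 1.04). For Arg1 the order was hepatocyte IR, liver IR, hepatocyte treated IR, liver control, liver treated IR and hepatocyte control, and liver control and liver treated IR did not differ beyond counting error at 1.05 (0.984 to 1.11). By share of reads the order changed in part. For Cps1 liver control and hepatocyte IR changed places at the top, with overlapping intervals, and liver treated IR moved up to the third place. For Ass1 hepatocyte control (0.206%) stood above hepatocyte treated IR (0.176%), with Wilson intervals that do not overlap. Liver treated IR and liver IR changed places at the bottom for Ass1, with overlapping intervals. For Arg1 the liver libraries all stood above hepatocyte treated IR, and liver treated IR stood above liver control with overlapping intervals. The intervals leave out the spread between pools of animals, which 1 library per group cannot give.

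The sequences just upstream of Cps1 and Ass1 are shown as a description. Whether they bear on the levels of these genes was not tested. Each is the 250 bases before the start site used by the RefSeq-based table of build GRCr8, on the plus strand, at chr9:76063613-76063862 for Cps1 and chr3:35149480-35149729 for Ass1. The sources used here name no build for the count files, and these positions belong to the reference alone. The table gave a sequence for 2 of the 3 genes, and Arg1 is named only. Capitals mark matches to the motifs searched.
Cps1: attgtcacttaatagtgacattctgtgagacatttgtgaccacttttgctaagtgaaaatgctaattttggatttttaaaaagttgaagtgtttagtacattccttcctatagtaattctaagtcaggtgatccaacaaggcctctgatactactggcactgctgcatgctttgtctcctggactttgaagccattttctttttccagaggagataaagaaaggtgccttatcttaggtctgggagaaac
Ass1: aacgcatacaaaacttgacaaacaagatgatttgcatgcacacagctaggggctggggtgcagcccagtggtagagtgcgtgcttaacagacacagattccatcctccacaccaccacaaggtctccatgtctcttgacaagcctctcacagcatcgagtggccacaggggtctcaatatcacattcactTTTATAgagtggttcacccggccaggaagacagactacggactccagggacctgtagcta
Both strands were searched for TATAAA, the core of the TATA box, and for CCAAT, the box named after its letters. They were also searched for TGACG, a cAMP response half-site, and for TGTTCT, a glucocorticoid receptor half-site. The only match in either window, so with no overlap, was a TATAAA on the opposite strand of Ass1, from 60 to 55 bases before the start. Among 33469 upstream windows of this length, 12.9% hold the first of these motifs, 34.0% the second, 18.2% the third and 17.5% the last. The windows differ in base composition, with 38.0% G and C in Cps1 and 51.2% in Ass1. A match is a description of the letters and not a binding site.

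IR was first compared with control in whole liver, where Ass1 was the enzyme set apart. It was 2.06-fold lower in the IR library (95% Clopper-Pearson counting interval 1.997 to 2.12), and 2.84% of the 9932 genes had a lower ratio. Cps1 was 1.17-fold lower (1.14 to 1.202) and Arg1 1.27-fold higher (1.201 to 1.35). Genes were called apart by size, at 2-fold or more in either direction and with 1 outside the counting interval. By this rule 1 of 3 enzymes was apart, beside 5.98% of all genes. The median log2 ratio was -0.225 over the 3 enzymes and 0.0441 over all genes with reads in both libraries. Ass1 stayed at least 2-fold lower under all 3 other scalings, with log2 ratios down to -1.38, whereas the Arg1 log2 ratio of 0.35 shrank to 0.0086 when libraries were set by total reads without the most abundant gene.

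In hepatocytes the same comparison gave another picture, with Cps1 and Arg1 higher and Ass1 close to equal. Cps1 was 1.52-fold higher in the IR library (1.48 to 1.56) and Arg1 1.58-fold higher (1.499 to 1.67). Ass1 had a ratio of 1.02, with a counting interval of 0.994 to 1.05 that includes equality. No enzyme was apart by the 2-fold rule (0 of 3, beside 16.5% of all genes), and by a 1.5-fold rule 2 of 3 were, beside 30.5%. The ratios of Cps1 and Arg1 were higher than those of 75.8% and 77.8% of all genes. The median log2 ratio was 0.602 over the enzymes and 0.00909 over all genes. Cps1 and Arg1 were higher under every scaling tried, with log2 ratios of 0.60 to 0.81 and 0.66 to 0.87 under the alternatives.

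Treated IR was then compared with IR alone, the comparison that bears on both drugs. In hepatocytes Cps1 was 2.20-fold lower in the treated library (2.12 to 2.28), Arg1 was 1.30-fold lower (1.22 to 1.38), and Ass1 had a ratio of 0.981 (0.948 to 1.01). Here 1 of 3 enzymes was apart, beside 23.3% of all genes, and 14.8% of genes had a lower ratio than Cps1. The Cps1 log2 ratio of -1.14 reached -1.62 when libraries were set by totals without the most abundant gene. In that setting Arg1 went from -0.38 to -0.86 and Ass1 from -0.028 to -0.51. With library totals alone, Arg1 was at -0.67 and Ass1 at -0.32. The near-equal level of Ass1 thus rests on the scaling. The hepatocyte IR library, from which this comparison starts, also had the largest share of reads in the most abundant gene, at 19.4%, and the treated IR library the smallest, at 8.10%.

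In liver all 3 enzymes were lower in the treated than in the untreated IR library on the TMM scale, and none by 2-fold. Cps1 was 1.18-fold lower (1.15 to 1.205), Ass1 1.28-fold lower (1.24 to 1.31) and Arg1 1.33-fold lower (1.28 to 1.39). By the rule of size 0 of 3 were apart, beside 2.77% of all genes. These directions depend on the scaling: set by library totals alone, Cps1 turned higher in the treated library (log2 ratio 0.15 in place of -0.24) and so did Ass1 (0.040 in place of -0.35), while Arg1 was close to equal (-0.021 in place of -0.41). The TMM factors of these libraries were 0.945 for IR and 1.24 for treated IR.

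**Figure D2:**
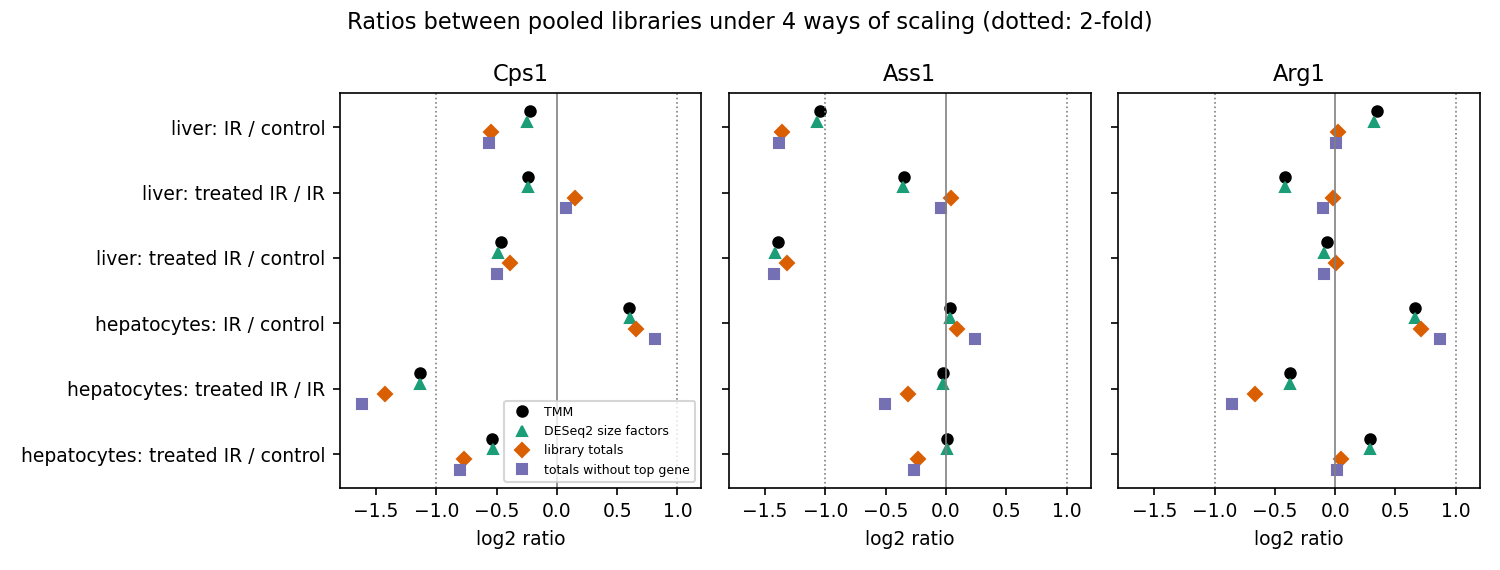
Log2 ratios between pooled libraries (x axes; 0 is equal, dotted lines are 2-fold) for Cps1, Ass1 and Arg1 in 6 comparisons within liver or hepatocytes (y axis), each under TMM scaling, DESeq2 size factors, library totals and library totals without the most abundant gene. Ass1 lay beyond 2-fold lower in both liver comparisons with control and Cps1 in hepatocyte treated IR against IR under all 4, while the treated against untreated liver ratios crossed or came close to 0.

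Set against healthy control, the treated animals kept the split between preparations for Ass1. In liver Ass1 was 2.63-fold lower in treated IR than in control (2.55 to 2.71), with 1.15% of genes at a lower ratio. In hepatocytes its ratio to control was 1.005 (0.968 to 1.04). With library totals that hepatocyte ratio was 0.8525, and without the most abundant gene 0.8335. Cps1 was lower in both preparations, by 1.38-fold in liver (1.34 to 1.42) and 1.45-fold in hepatocytes (1.39 to 1.51), and kept this direction under all scalings. Arg1 had a ratio of 0.957 in liver (0.901 to 1.02) and 1.22 in hepatocytes (1.14 to 1.31). The hepatocyte value of Arg1 rests on the scaling, at 1.035 with library totals and 1.011 without the most abundant gene. By the rule of size 1 of 3 enzymes was apart in liver, beside 7.2% of all genes, and 0 of 3 in hepatocytes, beside 8.32%. The comparisons with control within a preparation share the control library, so they are not independent of each other.

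Ratios between the enzymes inside a library do not depend on how libraries are scaled, and gene length cancels when such ratios are compared across libraries. They say nothing of which enzyme is more abundant per molecule. There were 0.954 Cps1 reads per Ass1 read in liver control (counting interval 0.923 to 0.987) and 1.07 in hepatocyte control (1.03 to 1.10). After IR this ratio was 1.68 in liver (1.64 to 1.72) and 1.58 in hepatocytes (1.54 to 1.61), that is 1.76-fold (1.69 to 1.84) and 1.48-fold (1.42 to 1.54) above control. Both preparations thus held more Cps1 reads per Ass1 read after IR, beside lower Ass1 in liver and higher Cps1 in hepatocytes on the TMM scale. In treated IR the preparations parted: the ratio was 1.82 in liver (1.77 to 1.87) and 0.732 in hepatocytes (0.700 to 0.764), the highest and the lowest of the 6 libraries.

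Arg1 also gained on Ass1 after IR in both preparations. Liver control held 0.204 Arg1 reads per Ass1 read, liver IR 0.535 and liver treated IR 0.512. Hepatocyte control held 0.252, hepatocyte IR 0.390 and hepatocyte treated IR 0.306. All 4 libraries after IR were above both controls, by 2.62-fold in liver IR (2.46 to 2.80), 2.51-fold in liver treated IR (2.35 to 2.69), 1.55-fold in hepatocyte IR (1.45 to 1.65) and 1.21-fold in hepatocyte treated IR (1.12 to 1.31) relative to the control of the same preparation. The Cps1 to Arg1 ratio ran from 4.68 in liver control to 2.39 in hepatocyte treated IR, and in hepatocytes control and IR were close, at 4.22 and 4.05 (change 0.958, interval 0.902 to 1.02). These intervals cover counting error alone and have no replicate check.

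**Figure D3:**
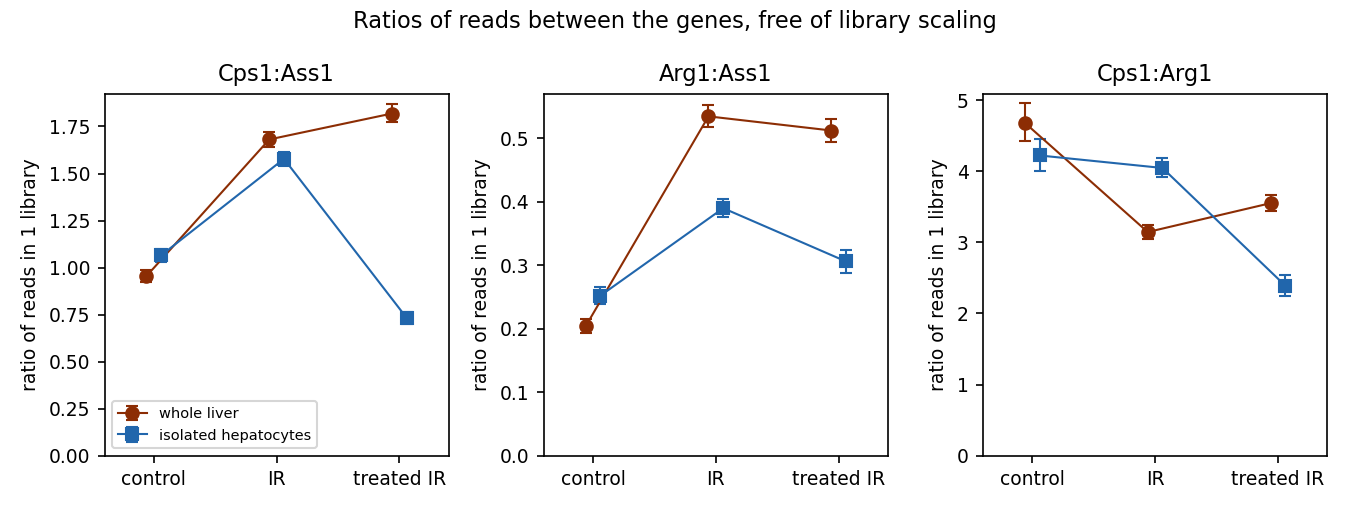
Ratios of reads between 2 enzymes within the same library (y axes, from 0) for Cps1 to Ass1, Arg1 to Ass1 and Cps1 to Arg1, in control, IR and treated IR of whole liver (circles) and hepatocytes (squares), with 95% Clopper-Pearson counting intervals. Arg1 to Ass1 was above both controls in all 4 libraries after IR, and Cps1 to Ass1 was 1.82 in liver treated IR against 0.732 in hepatocyte treated IR.

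Hepatocytes were compared with whole liver within each condition, and the direction changed with the condition. In control libraries all 3 enzymes were lower in hepatocytes, Cps1 by 1.25-fold (1.21 to 1.29), Ass1 by 1.39-fold (1.35 to 1.44) and Arg1 by 1.13-fold (1.05 to 1.21). In IR libraries all 3 were higher in hepatocytes, at ratios of 1.42 for Cps1 (1.39 to 1.45), 1.51 for Ass1 (1.47 to 1.55) and 1.10 for Arg1 (1.06 to 1.15). In treated IR Cps1 was 1.31-fold lower (1.27 to 1.36) and Ass1 1.89-fold higher in hepatocytes (1.82 to 1.96), and Arg1 had a ratio of 1.13 (1.064 to 1.199). Set by library totals, the treated IR ratios moved to 0.488 for Cps1, 1.213 for Ass1 and 0.724 for Arg1, so that the direction turned for Arg1 and Ass1 was no longer 1.5-fold higher. By the rule of size 0 of 3 enzymes were apart in control, IR or treated IR, beside 11.1%, 17.4% and 19.7% of all genes. By the 1.5-fold rule Ass1 alone was apart in IR and in treated IR, beside 31.5% and 33.5% of all genes. With library totals 1 of 3, Cps1, was apart in treated IR by the 2-fold rule. The share of all genes apart under that scaling is not given here, and the scaling shifted every log2 ratio of this pair by -0.641.

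Across all 6 libraries, edgeR's quasi-likelihood test, with preparation and condition as additive terms, called none of the enzymes in any of 4 comparisons (0 of 3 each at an adjusted p of 0.05, and 0 of 3 at an unadjusted p under 0.05). DESeq2's Wald test and limma-voom also called 0 of 3 in each, with 0 of 3 at an unadjusted p under 0.05. Of 9932 genes, DESeq2 called 441 and limma-voom 569 for hepatocytes vs liver. Between conditions limma-voom called 0, and DESeq2 called 1 for treated IR vs IR and 0 otherwise. At an unadjusted p under 0.05, edgeR had 998 genes for hepatocytes vs liver and 332 for IR vs control. It had 297 for treated IR vs IR and 230 for treated IR vs control. Over all 9932 genes edgeR called 5.34% for hepatocytes vs liver and 0% for each comparison of conditions. The zeros over all genes depend on the libraries: without liver IR, or without liver treated IR, genes were called in each comparison of conditions. The enzymes were not among those called. These fits tested 10126 and 9834 genes in the same order. A condition was left with a single library in each, so no share of all genes is given for them. For hepatocytes vs liver the log2 ratios were -0.073 for Cps1 (SE 0.445), 0.35 for Ass1 (SE 0.454) and 0.048 for Arg1 (SE 0.355), with edgeR adjusted p-values of 0.996, 0.965 and 0.996. The median was 0.0479 over the enzymes and 0.032 over all genes. A p that misses the threshold does not show that the levels were equal.

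For the conditions the same model averages the preparations. For IR vs control the log2 ratios were 0.21 for Cps1 (SE 0.543), -0.56 for Ass1 (SE 0.552) and 0.50 for Arg1 (SE 0.436), each with an edgeR adjusted p of 0.996. For treated IR vs IR they were -0.71 (SE 0.546), -0.17 (SE 0.545) and -0.39 (SE 0.435) in the same order, with edgeR adjusted p-values of 0.981, 0.994 and 0.981. The direction was lower in 2 of 2 preparations for each enzyme on the TMM scale, for Ass1 in hepatocytes within counting error. With library totals Cps1 and Ass1 turned higher in liver, at pair log2 ratios of 0.15 and 0.040. For treated IR vs control the log2 ratios of the model were -0.49 (SE 0.541), -0.72 (SE 0.557) and 0.11 (SE 0.435), each with an edgeR adjusted p of 1. The Ass1 value of treated IR vs control ran from -1.32 without hepatocyte control to -0.081 without liver control. Any response that liver and hepatocytes did not share is part of the spread in this fit.

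**Figure D4:**
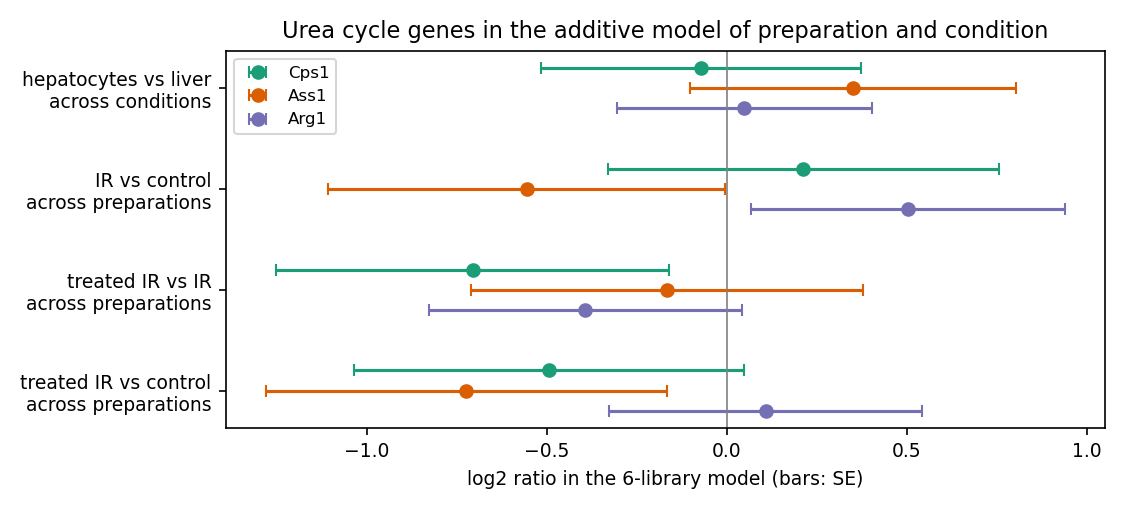
Log2 ratios (x axis) with standard errors (bars) of Cps1, Ass1 and Arg1 in the edgeR model of all 6 libraries, for hepatocytes vs liver and for 3 comparisons of conditions (y axis). No value of any of the 3 enzymes passed an adjusted p of 0.05.

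The difference between preparations can be put as the hepatocyte ratio over the liver ratio, again with a counting interval only and on the TMM scale. For IR vs control it was 1.77 for Cps1 (1.71 to 1.84), 2.11 for Ass1 (2.02 to 2.20) and 1.24 for Arg1 (1.15 to 1.35), so all 3 enzymes stood relatively higher after IR in hepatocytes than in liver. This direction held with library totals, at 2.30, 2.73 and 1.61 in the same order. For treated IR vs IR it was 0.536 for Cps1 (0.514 to 0.559) and 1.25 for Ass1 (1.197 to 1.31), and for Arg1 it was 1.03 with an interval that includes 1 (0.954 to 1.10). With library totals these became 0.334 for Cps1, 0.780 for Ass1, whose direction turned, and 0.639 for Arg1. For treated IR vs control it was 0.951 for Cps1 (0.906 to 0.999), 2.64 for Ass1 (2.51 to 2.77) and 1.27 for Arg1 (1.16 to 1.40), and with library totals 0.769, 2.13 and 1.03. Whether these differences exceed the spread between pools of animals was not tested, since each value rests on 4 single libraries.

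The 3 enzymes did not share 1 profile over the 6 libraries. Likeness was measured as the root-mean-square difference of log2 CPM profiles, each centred on its own mean. It was 0.319 between Cps1 and Arg1, 0.481 between Cps1 and Ass1 and 0.511 between Ass1 and Arg1, where smaller is more alike. Among 957 other genes with a mean of at least 100 CPM, the closest to Cps1 was ENSRNOG00000019525 at 0.0926 (median of all 0.534), the closest to Ass1 was ENSRNOG00000033915 at 0.0594 (median 0.496), and the closest to Arg1 was ENSRNOG00000017123 at 0.0946 (median 0.416). The other 16 listed genes of the cycle and of nitrogen handling, among them those of ornithine transcarbamylase and argininosuccinate lyase, were paired with an Ensembl ID in 0 of 16 cases and were not analysed here.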

How the data were processed

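Libraries of poly(A)-selected RNA, pooled within each of 6 groups, were prepared with an Ion Total RNA-Seq kit, per the labels' protocols, and read on an Ion Torrent Proton, per the series' design text. The authors deposited raw counts of reads, listed by Ensembl gene ID. The submitters' processing notes list TopHat2 2.0.13 and HTSeq 0.6.1. The sources used here give no build, annotation or strand setting, so reads shared with overlapping, antisense or near-identical genes cannot be judged. HTSeq summary lines, which name no gene, were left out.

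Groups were taken from titles. Genes were filtered with edgeR 4.0.16 filterByExpr (minimum count 10, by condition), which kept 99.6% to 99.9% of reads in genes, and scaled by TMM over all 6 libraries in R 4.3.3. Each pair ratio was taken on the TMM scale, with a 95% Clopper-Pearson interval and no p-value. Tests used edgeR's quasi-likelihood test on raw counts with preparation and condition as terms (2 residual degrees of freedom, common BCV 0.288) and Benjamini-Hochberg adjustment over 9932 genes. The only spread behind the p-values is how far liver and hepatocytes differ in their changes between conditions. With 1 library per group, this cannot be told apart from spread between pools. For each gene edgeR takes this spread in part from the other genes tested, so a p does not rest on 2 residual degrees of freedom alone. The standard error is the log2 ratio divided by the square root of F. Changes of a ratio between enzymes, and of the hepatocyte over the liver ratio, have normal intervals on the log scale from the counts. The scripts were tested on simulated data. Alternatives were DESeq2 1.42.0 (size factors, Wald test), limma-voom (limma 3.58.1), library totals with and without the most abundant gene, no filter, a minimum count of 50, 1.5-fold and 4-fold rules and leaving out each library. Genes named are the members, their closest profiles and listed pathway genes. Members and lists were chosen with earlier results of these data known.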

Additional observations from a re-analysis of the deposited data

Results flagged for a closer look

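Cps1 was set apart because its IR vs control ratios ran in opposite directions in the preparations, each with a counting interval that excludes 1. The ratio was 0.856 in liver and 1.52 in hepatocytes, so that the hepatocyte ratio was 1.77 times the liver ratio (counting interval 1.71 to 1.84). The opposite directions held under DESeq2 size factors, both ways of using library totals, no filter and a minimum count of 50, with log2 ratios from -0.57 to -0.20 in liver and from 0.60 to 0.81 in hepatocytes. The factor of 1.77 was 2.30 with library totals and 2.60 with totals without the most abundant gene. For Ass1 this factor was larger, at 2.11, 2.73 and 3.09 in the same order of scalings. On the TMM scale its hepatocyte ratio of 1.02 had an interval that includes 1. With library totals the Ass1 ratios also ran in opposite directions, at 0.389 in liver and 1.063 in hepatocytes. These differences were not tested, because each group is 1 pooled library.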

How the results depend on the processing

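No value of the 3 enzymes in the tests across 6 libraries passed an adjusted p of 0.05 with edgeR under any alternative, with DESeq2 or with limma-voom, and the adjusted p-values ran from 0.308 to 1. Over all genes, no filter gave 3 calls for IR vs control in place of 0. It gave 31 for treated IR vs IR and 14 for treated IR vs control, each of 16548 genes tested. Leaving out a library also gave calls for each of these comparisons in some or all of the fits, over other numbers of genes tested. With a library left out, a condition with a single library left was assumed to vary like the others. Directions turned in the tests as follows. For hepatocytes vs liver, Arg1 turned to a log2 ratio of -0.26 with library totals (-0.26 without the most abundant gene) and to -0.021 with a minimum count of 50, and ran from -0.047 to 0.17 with a library left out (-0.039 without liver treated IR, -0.047 without hepatocyte IR and -0.00068 without hepatocyte treated IR). Cps1 turned to 0.067 without liver control, 0.069 without liver treated IR, 0.067 without hepatocyte control and 0.11 without hepatocyte treated IR, in a range of -0.41 to 0.11. For IR vs control, Ass1 turned to 0.11 without liver control (range -1.12 to 0.11) and Cps1 to -0.26 without hepatocyte IR (range -0.26 to 0.62). For treated IR vs IR, Ass1 turned to 0.16 without liver treated IR and 0.026 without hepatocyte IR (range -0.65 to 0.16). For treated IR vs control, Arg1 turned to -0.044 with totals without the most abundant gene and -0.062 without hepatocyte control (range -0.062 to 0.27), and Ass1 ran from -1.32 to -0.081 with a library left out. The cause was not tested.

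Counts of enzymes apart changed as follows. A 1.5-fold rule gave 2 of 3 for hepatocyte IR vs control, 1 for hepatocyte vs liver IR and 1 for hepatocyte vs liver treated IR, each in place of 0. A 4-fold rule gave 0 for liver IR vs control, liver treated IR vs control and hepatocyte treated IR vs IR, in place of 1. Library totals, with or without the most abundant gene, gave 1 in place of 0 for hepatocyte vs liver treated IR. The share of all genes apart under the 4-fold rule or with library totals is not given here. These counts therefore cannot be set against all genes. No count changed under DESeq2 size factors, no filter or a minimum count of 50. Among pair ratios, Ass1 in hepatocyte treated IR vs control (log2 ratio 0.0066) turned to -0.23 with library totals, -0.26 without the most abundant gene and -0.016 with no filter. Arg1 in liver treated IR vs control (-0.064) turned to 0.0061 with library totals. In liver treated IR vs IR, library totals turned Cps1 from -0.24 to 0.15 (0.073 without the most abundant gene) and Ass1 from -0.35 to 0.040. Arg1 in hepatocyte vs liver treated IR turned from 0.18 to -0.47 (-0.48 without the most abundant gene). No paired analysis of animals was possible because RNA was pooled within each group and hepatocytes came from additional animals. Preparation is already a term in the tests. Each enzyme had at least 1436 reads in every library. Scaling shifted the log2 ratios of a pair of libraries by up to -0.651, and 1 library per group gives no spread between pools.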
